A study of Mus musculus with 9 samples.

Results

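The insulin-like growth factor (IGF) genes described here are 10 mouse genes: the ligands Igf1 and Igf2, the receptors Igf1r and Igf2r, and the binding proteins and relatives Igfbp2, Igfbp3, Igfbp4, Igfbp5, Igfbp7 and Igfbpl1. The list was chosen, and each of its genes was included when a probe set of the array was annotated to it and to no other gene. Igfbp1 and Igfbp6, which also have such a probe set, were placed among other genes of the IGF and insulin axis. All 10 have 1 such probe set each, out of 19938 genes measured in this way, and all 10 lay above the 25th percentile of their array on all 9 arrays, so that all were among the 16323 genes tested. Their levels are log2 values from total RNA of 3 groups of 3 mouse samples at postnatal day 13. The groups are medulloblastoma, a tumour of the cerebellum, labelled Ptch1KO, then SufuKO cerebellum, and wildtype cerebellum. Neither the alleles, nor any Cre driver or strain, nor the number of mice behind a sample are given in the labels, and both knockouts are named there only by gene.

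IGF1 and IGF2 are secreted proteins that bind IGF1R, a receptor tyrosine kinase that signals through IRS adaptors to PI3K and AKT and favours growth, division and survival. IGF2R, also the cation-independent mannose 6-phosphate receptor, takes IGF2 into lysosomes for breakdown, and the IGFBP proteins hold IGFs in the extracellular fluid. In the mouse cerebellum IGF signalling acts together with Sonic hedgehog on granule neuron progenitors, and Igf2 was found to be needed for medulloblastoma in Ptch1 mutant mice. PTCH1 and SUFU are both brakes on the Hedgehog pathway.

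The arrays had medians between 6.72 and 6.79 (log2), and 3 arrays per group limit the precision of every value. Sufu read 9.88 ± 0.06 in Ptch1KO, 8.07 ± 0.07 in SufuKO and 8.96 ± 0.12 in wildtype (log2, SD, n = 3 each), so it was lowest under its own label. Ptch1 read 11.28 ± 0.14, 10.20 ± 0.05 and 10.26 ± 0.01 in the same order of groups, which does not check the Ptch1KO label because the deleted part of the gene is not given. The labelled tissue could be recognised in all groups from cerebellar markers. The mean level of 8 Purkinje cell genes ran from 8.14 to 8.25 on the Ptch1KO arrays, from 9.28 to 9.36 on the SufuKO arrays and from 9.87 to 9.96 on the wildtype arrays. Xist was high on 1 Ptch1KO array, 1 SufuKO array and all 3 wildtype arrays, so sex differed between groups. None of the calls on the 10 genes changed with sex as a covariate.

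Measured against wildtype, 3 of the 10 IGF genes rose and 4 fell in Ptch1KO tumours, and 3 rose and 3 fell in SufuKO cerebellum (limma adjusted p under 0.05, adjusted over all 16323 genes). The genes that rose were the same in both mutants, namely Igfbpl1, Igfbp2 and Igf1r. Those that fell in both were Igfbp5, Igf2 and Igfbp7, and Igf2r fell in Ptch1KO as well. Over all genes, 46.8% were called in Ptch1KO against wildtype (22.1% higher and 24.7% lower) and 25.4% in SufuKO against wildtype (13% higher and 12.4% lower). Between the mutants, 1 IGF gene was higher and 2 were lower in Ptch1KO, beside 29.7% of all genes called. Both comparisons with wildtype use the same 3 wildtype arrays, so their likeness is no independent repeat. The median log2 difference of the 10 genes was 0.10, -0.03 and 0.11 in the comparisons of Ptch1KO with wildtype, SufuKO with wildtype and Ptch1KO with SufuKO, and that of all genes was -0.013, -0.006 and -0.008.

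**Figure D1:**
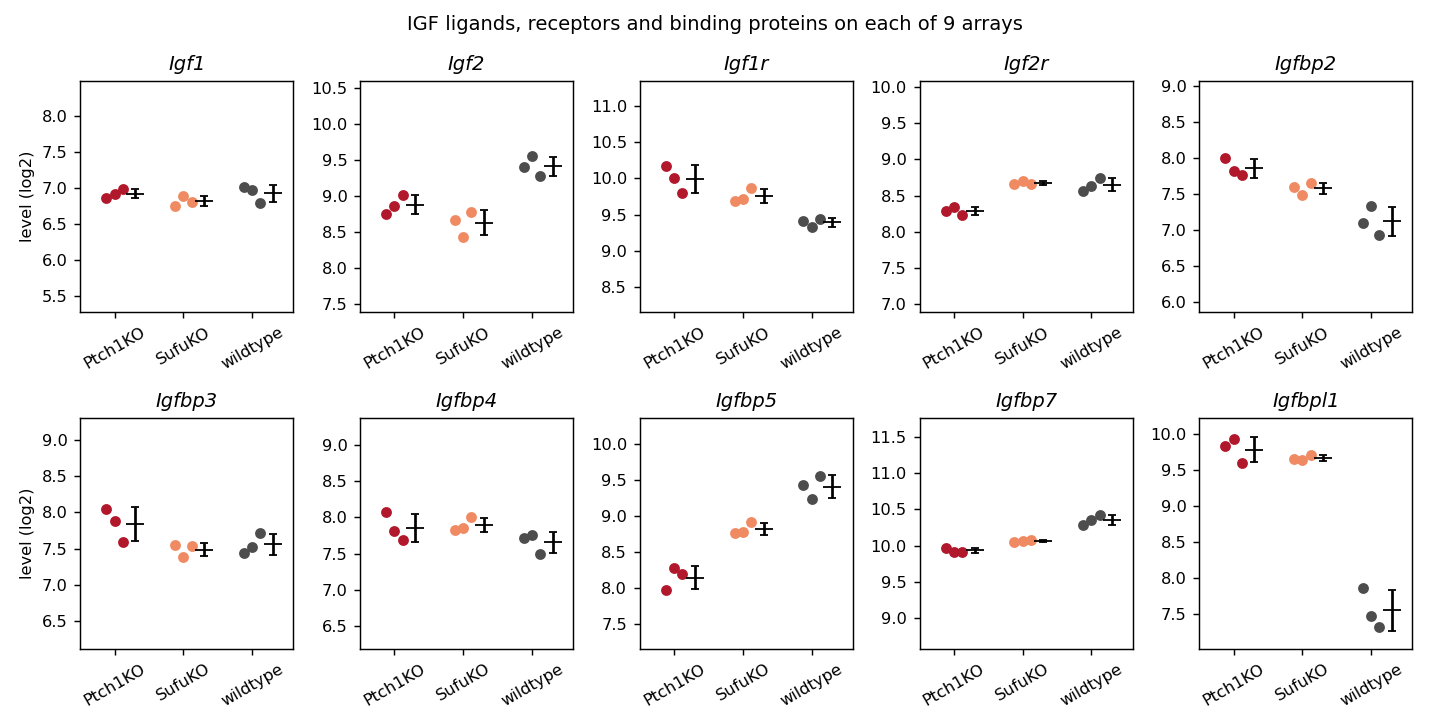
Level of each of the 10 IGF genes (log2, vertical axis, of the same height in every panel) on the 3 Ptch1KO, 3 SufuKO and 3 wildtype arrays (points, replicates 1 to 3 from left to right), with the group mean and SD as a bar beside them. Igfbpl1 lies between 9.60 and 9.92 on the Ptch1KO arrays and between 9.64 and 9.71 on the SufuKO arrays, above 7.32 to 7.87 on the wildtype arrays, while Igfbp5 is lowest in Ptch1KO, intermediate in SufuKO and highest in wildtype.

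Of the ligands, Igf2 was lower in both mutants, and no difference was detected for Igf1. Igf2 (chromosome 7), a growth factor of fetal life that the mouse transcribes mainly from the paternal copy, read 8.75, 8.87 and 9.02 in Ptch1KO, 8.67, 8.43 and 8.78 in SufuKO, and 9.40, 9.55 and 9.28 in wildtype (log2). Every mutant array lay below every wildtype array, and the arrays of the 2 mutants overlapped. The difference from wildtype was -0.53 ± 0.10 in Ptch1KO (SE, 1.45-fold lower, limma adjusted p = 9.32e-04) and -0.78 ± 0.10 in SufuKO (1.72-fold lower, adjusted p = 2.00e-04). In SufuKO it held rank 133 from the lowest difference among 16323 genes, and in Ptch1KO rank 1824. The means were lowest in SufuKO, yet the mutants did not pass the test against each other (0.25, 95% confidence interval 0.03 to 0.48, limma adjusted p = 0.0907). Without SufuKO replicate 3 that comparison passed (0.33, adjusted p = 0.0382).

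Igf2 is known to be made in the meninges, the blood vessels and the choroid plexus of the brain, and markers of these tissues moved as well. In total RNA of a tissue, fewer cells of a type and less RNA per cell cannot be told apart. Of 10 meningeal fibroblast genes, 1 rose and 5 fell in Ptch1KO and 7 fell in SufuKO. Over all genes 22.1% were higher and 24.7% lower in Ptch1KO, and 13% and 12.4% in SufuKO. The mean level of the meningeal genes ran from 6.64 to 6.797 in Ptch1KO, 6.57 to 6.69 in SufuKO and 6.87 to 6.96 in wildtype. The wildtype arrays lay above all others, as for Igf2. Endothelial and pericyte genes showed this too (7.64 to 7.70, 7.75 to 7.84 and 7.98 to 8.11 in the same groups). So did Purkinje cell, Bergmann glia and astrocyte, oligodendrocyte and mature granule neuron genes, so it is not particular to the meninges. The meningeal genes were mixed in Ptch1KO. Lum was the 1 that rose (1.35-fold, limma adjusted p = 0.00266), and Col1a1, Col1a2, Dcn and Aldh1a2 were not called. Slc6a13, a GABA transporter of the meninges, was 1.37-fold lower in Ptch1KO (limma adjusted p = 3.73e-04) and 1.39-fold lower in SufuKO (adjusted p = 8.72e-04). Choroid plexus genes did not go that way, with 3 of 8 higher and 0 lower in each mutant. Their mean ran from 7.05 to 7.28 in Ptch1KO, 6.54 to 7.28 in SufuKO and 6.47 to 6.86 in wildtype. The part of the meninges, the vessels or the choroid plexus in the Igf2 values was not tested.

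Igf1 (chromosome 10), which Purkinje cells and microglia express among others, read 6.87, 6.91 and 6.99 in Ptch1KO, 6.75, 6.89 and 6.81 in SufuKO, and 7.02, 6.97 and 6.795 in wildtype (log2). The 3 groups overlapped. Its difference from wildtype was -0.006 (95% interval -0.17 to 0.16) in Ptch1KO and -0.11 (-0.28 to 0.06) in SufuKO (limma adjusted p = 0.96 and 0.346). Markers of these cell types did not move alike. All 8 tested Purkinje cell genes fell in each mutant, beside 24.7% of all genes lower in Ptch1KO and 12.4% in SufuKO. Microglial genes rose in 4 of 8 cases in Ptch1KO, where 22.1% of all genes were higher. In SufuKO 1 of 8 rose, the complement gene C1qb, near the 13% of all genes. Nothing is read from that count. C1qb was 2.35-fold higher in Ptch1KO (adjusted p = 1.24e-06) and 1.44-fold higher in SufuKO (adjusted p = 0.00318). The part of either cell type in the Igf1 level was not tested.

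The receptors differed from each other. Igf1r (chromosome 7), the signalling receptor, was highest in the tumours, with 10.18, 10.003 and 9.79 in Ptch1KO, 9.69, 9.71 and 9.87 in SufuKO, and 9.41, 9.32 and 9.44 in wildtype (log2). All mutant arrays lay above all wildtype arrays, while replicate 3 of Ptch1KO fell within the SufuKO range. It rose 1.51-fold in Ptch1KO (log2 difference 0.60 ± 0.09, SE, limma adjusted p = 1.88e-04) and 1.29-fold in SufuKO (0.37 ± 0.09, adjusted p = 0.0132). The SufuKO call ended without wildtype replicate 2 (0.33, adjusted p = 0.0568) and held in the other 16 alternatives. Ptch1KO and SufuKO did not pass against each other (0.23, interval 0.03 to 0.44, adjusted p = 0.0881), although they did without Ptch1KO replicate 3 (0.33, adjusted p = 0.0116), without SufuKO replicate 3 (0.29, adjusted p = 0.0492) and after quantile normalization (0.27, adjusted p = 0.0298).

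Igf2r (chromosome 17), the clearance receptor, changed in the tumours but was not called in SufuKO. It read 8.28, 8.34 and 8.23 in Ptch1KO, 8.66, 8.70 and 8.65 in SufuKO, and 8.57, 8.63 and 8.74 in wildtype (log2). The Ptch1KO arrays lay below all 6 others. Its level fell 1.29-fold in Ptch1KO against wildtype (-0.36 ± 0.07, SE, limma adjusted p = 6.86e-04) and 1.31-fold in Ptch1KO against SufuKO (-0.39 ± 0.07, adjusted p = 9.70e-04), a direct test that the mutants differ in this gene. In SufuKO against wildtype the difference was 0.02 (interval -0.12 to 0.17, adjusted p = 0.856). In the tumours the 2 receptors therefore moved in opposite directions on the same arrays, Igf1r up and Igf2r down.

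Among the classical binding proteins, Igfbp2 rose and Igfbp5 fell in both mutants. These are neighbouring genes on mouse chromosome 1, read from opposite strands. The 250 bases before their annotated starts and before that of Igf1r are shown from RefSeq (GRCm38.p6), because Igfbp2 and Igf1r rose and the neighbour of Igfbp2 fell; only the first of 2 annotated Igfbp2 starts is shown. Capitals mark E-boxes (CACGTG) and GC boxes (GGGCGG or, on the other strand, CCGCCC).
Igfbp2, chr1:72824230-72824479, plus strand: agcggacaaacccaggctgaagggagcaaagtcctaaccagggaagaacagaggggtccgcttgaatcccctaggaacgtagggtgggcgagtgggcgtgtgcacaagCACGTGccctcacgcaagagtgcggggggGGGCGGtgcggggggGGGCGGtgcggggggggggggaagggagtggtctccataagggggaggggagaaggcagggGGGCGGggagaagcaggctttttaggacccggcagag
Igfbp5, chr1:72874866-72875115, minus strand: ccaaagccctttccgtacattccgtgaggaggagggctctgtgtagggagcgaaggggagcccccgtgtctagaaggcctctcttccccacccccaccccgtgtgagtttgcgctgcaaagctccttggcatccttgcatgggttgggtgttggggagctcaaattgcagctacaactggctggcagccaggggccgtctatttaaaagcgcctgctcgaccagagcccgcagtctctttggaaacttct
Igf1r, chr7:67952007-67952256, plus strand: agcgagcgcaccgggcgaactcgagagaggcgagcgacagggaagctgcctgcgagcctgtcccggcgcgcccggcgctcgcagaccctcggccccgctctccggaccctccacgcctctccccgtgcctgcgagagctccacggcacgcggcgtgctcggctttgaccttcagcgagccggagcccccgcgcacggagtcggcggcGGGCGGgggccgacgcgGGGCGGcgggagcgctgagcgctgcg
The Igfbp2 window holds 1 E-box, 142 bases before the start, and 3 GC boxes. That of Igf1r holds 2 GC boxes, 43 and 26 bases before the start, and that of Igfbp5 holds none of the motifs searched. Over all 32851 promoter windows of this length, 6.02% hold the E-box and 32.7% the GC box, as do 2 and 6 of the 13 windows of IGF genes. The 2 with an E-box belong to Igfbp2, which rose in both mutants, and Igf2r, which fell in Ptch1KO. The binding site of Gli factors (GACCACCCA or TGGGTGGTC) is in 0.225% of all windows and in none of the 13 windows of the 9 IGF genes other than Igfbpl1, and TATAAA (or TTTATA) is in 12.4% of all windows and in 1 of the 13, that of Igfbp4. The GC content was 67.2% for Igfbp2, 58.8% for Igfbp5 and 77.6% for Igf1r. A match of letters shows neither binding nor regulation.

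Igfbp2, a binding protein abundant in developing brain and choroid plexus, read 8.01, 7.82 and 7.76 in Ptch1KO, 7.60, 7.49 and 7.65 in SufuKO, and 7.10, 7.34 and 6.93 in wildtype (log2). The 3 groups did not overlap, with Ptch1KO above SufuKO and SufuKO above wildtype. It rose 1.67-fold in Ptch1KO (0.74 ± 0.10, SE, limma adjusted p = 6.69e-05) and 1.37-fold in SufuKO (0.46 ± 0.10, adjusted p = 0.00602). The step between the mutants did not pass (0.28, interval 0.06 to 0.50, adjusted p = 0.0596), but passed in 6 of 17 alternatives, in a range of adjusted p from 0.0321 to 0.229. The mean level of choroid plexus genes had the order of groups of Igfbp2 (7.20 in Ptch1KO, 6.96 in SufuKO and 6.65 in wildtype). The SufuKO arrays (6.54 to 7.28) overlapped those of both other groups. Granule neuron progenitor genes (means 10.46, 9.68 and 8.17) and microglial genes (7.29, 7.01 and 6.86) had the order of Igfbp2 too. That order is thus not particular to choroid plexus genes. Ttr, not called in either mutant, had an SD of 0.91 in Ptch1KO, 2.09 in SufuKO and 1.34 in wildtype. Of 8 choroid plexus genes, 3 were higher and 0 lower in each mutant, beside 22.1% and 13% of all genes higher. The 3 were Kl, Otx2 and Clic6 in Ptch1KO, and Kl, Otx2 and Sostdc1 in SufuKO. In SufuKO Clic6 differed from wildtype by -0.19 (log2, not called). Folr1, Kcne2 and Aqp1 were called in neither mutant. Astrocyte and Bergmann glia genes, which mark cells that can also make Igfbp2, moved the other way. Of these 10 genes, 9 were lower in each mutant, beside 24.7% of all genes in Ptch1KO and 12.4% in SufuKO. The mean level of the 10 ran from 8.66 to 9.14 in Ptch1KO, 9.21 to 9.31 in SufuKO and 10.03 to 10.13 in wildtype. The part of any of these cell types in the Igfbp2 level was not tested.

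Igfbp5, a binding protein that in the mouse is made by several neural and connective tissue cells, showed the largest fall among the 10 genes in Ptch1KO. It read 7.97, 8.27 and 8.19 in Ptch1KO, 8.77, 8.77 and 8.91 in SufuKO, and 9.43, 9.24 and 9.55 in wildtype (log2). The groups were fully apart, in the order Ptch1KO, SufuKO and wildtype from low to high, and each step passed the test. The level was 2.40-fold lower in Ptch1KO than in wildtype (-1.26 ± 0.10, SE, limma adjusted p = 5.42e-07), 1.502-fold lower in SufuKO than in wildtype (-0.59 ± 0.10, adjusted p = 9.95e-04), and 1.596-fold lower in Ptch1KO than in SufuKO (-0.67 ± 0.10, adjusted p = 2.79e-04). It held rank 379 from the lowest difference in Ptch1KO and rank 418 in SufuKO, each among 16323 genes. These 3 calls held under all 17 alternatives. Mature granule neuron genes followed the same order of groups, with 8 of 8 lower in Ptch1KO and 7 of 8 in SufuKO. So did oligodendrocyte genes, with 7 of 7 lower in each. Over all genes 24.7% were lower in Ptch1KO and 12.4% in SufuKO. The mean of the mature granule neuron genes ran from 8.76 to 9.39 in Ptch1KO, 10.25 to 10.30 in SufuKO and 11.02 to 11.22 in wildtype. That of the oligodendrocyte genes ran from 8.23 to 8.48, 9.49 to 9.93 and 10.25 to 10.52 in the same groups. Purkinje cell genes (means 8.20, 9.32 and 9.91) and Bergmann glia and astrocyte genes (8.87, 9.27 and 10.08) had this order too. So did endothelial and pericyte genes (7.67, 7.80 and 8.06), so the order is not particular to the 2 lists above. The part of any of these cell types in the Igfbp5 level was not tested.

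Igfbp3 and Igfbp4 (both on chromosome 11) did not pass against wildtype in either mutant. Igfbp3, the main IGF carrier of the blood, read 8.05, 7.89 and 7.59 in Ptch1KO, 7.54, 7.38 and 7.53 in SufuKO, and 7.44, 7.52 and 7.72 in wildtype (log2). Its Ptch1KO arrays spread most and overlapped those of wildtype, giving 0.28 ± 0.11 (SE, interval 0.04 to 0.52, limma adjusted p = 0.0556). That difference passed without Ptch1KO replicate 3 (0.41, adjusted p = 0.00469), without wildtype replicate 3 (0.36, adjusted p = 0.0299) and among genes brighter than the median of their array (adjusted p = 0.0469). In SufuKO the difference from wildtype was -0.07 (-0.32 to 0.17, adjusted p = 0.703). Ptch1KO was 1.28-fold above SufuKO (0.36 ± 0.11, adjusted p = 0.0294), and this call ended without Ptch1KO replicate 1 (0.25, adjusted p = 0.134), without Ptch1KO replicate 2 (0.33, adjusted p = 0.0946) and without SufuKO replicate 2 (0.30, adjusted p = 0.118).

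Igfbp4, a binding protein that mostly holds back IGF action, had 8.07, 7.82 and 7.69 in Ptch1KO, 7.83, 7.85 and 8.002 in SufuKO, and 7.72, 7.75 and 7.49 in wildtype (log2). Its SufuKO arrays lay above those of wildtype, yet the difference of 0.24 ± 0.10 (SE, interval 0.01 to 0.46) had a limma adjusted p of 0.119. In Ptch1KO it was 0.20 (-0.02 to 0.43, adjusted p = 0.134), and it passed without Ptch1KO replicate 3 (0.29, adjusted p = 0.0423). Between the mutants it was -0.04 (-0.26 to 0.19, adjusted p = 0.862).

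The 2 relatives of the binding proteins went in opposite directions. Igfbp7 (chromosome 5), a secreted protein of blood vessels with low affinity for IGFs, read 9.97, 9.91 and 9.92 in Ptch1KO, 10.05, 10.07 and 10.08 in SufuKO, and 10.29, 10.36 and 10.43 in wildtype (log2). The SD was 0.031 in Ptch1KO, 0.016 in SufuKO and 0.069 in wildtype, and the 3 groups did not overlap. Igfbp7 fell 1.34-fold in Ptch1KO (-0.42 ± 0.06, SE, limma adjusted p = 1.12e-04) and 1.23-fold in SufuKO (-0.29 ± 0.06, adjusted p = 0.00471). Between the mutants it was -0.13 (-0.27 to 0.005, adjusted p = 0.149). Of 12 endothelial and pericyte genes, 10 fell in Ptch1KO and 6 in SufuKO, with 0 higher in either. Over all genes 24.7% were lower in Ptch1KO and 12.4% in SufuKO. The mean of the 12 genes ran from 7.64 to 7.70 in Ptch1KO, 7.75 to 7.84 in SufuKO and 7.98 to 8.11 in wildtype. This was the same order as Igfbp7. That order was also shown by Purkinje cell, Bergmann glia and astrocyte, oligodendrocyte and mature granule neuron genes. Slc2a1, the glucose transporter of brain endothelium, fell 1.69-fold in Ptch1KO (adjusted p = 1.43e-06) and 1.43-fold in SufuKO (adjusted p = 1.69e-04). The part of the vessels in the Igfbp7 values was not tested.

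Igfbpl1 (chromosome 4), a secreted IGFBP-like protein found in newborn neurons, changed more than any other of the 10 genes. It read 9.83, 9.92 and 9.60 in Ptch1KO, 9.65, 9.64 and 9.71 in SufuKO, and 7.87, 7.47 and 7.32 in wildtype (log2). The mutants overlapped each other and stood far above wildtype. Its level was 4.68-fold higher in Ptch1KO (2.23 ± 0.12, SE, limma adjusted p = 5.01e-08) and 4.31-fold higher in SufuKO (2.11 ± 0.12, adjusted p = 1.06e-06). It held rank 13 from the highest difference among 16323 genes in SufuKO and rank 103 in Ptch1KO. The mutants differed by 0.12 (interval -0.15 to 0.39, adjusted p = 0.567).

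Newborn granule neuron genes rose in 6 of 8 cases in each mutant, with 1 of 8 lower in Ptch1KO. Over all genes 22.1% were higher and 24.7% lower in Ptch1KO, and 13% and 12.4% in SufuKO. Between Ptch1KO and SufuKO 2 of the 8 were higher, namely the transcription factor genes Nhlh1 (1.26-fold, adjusted p = 0.0206) and Nhlh2, and 3 were lower (Cntn2, Sema6a and Stmn2). Between these 2 groups 12.2% of all genes were higher and 17.5% lower in Ptch1KO. The mean of the 8 newborn neuron genes ran from 10.59 to 10.69 in Ptch1KO, 10.72 to 10.76 in SufuKO and 9.96 to 10.13 in wildtype. Granule neuron progenitor genes rose in 5 of 6 cases in each mutant and again in 5 of 6 between Ptch1KO and SufuKO. Their means ran from 10.25 to 10.65 in Ptch1KO, 9.59 to 9.85 in SufuKO and 8.05 to 8.36 in wildtype. Of the progenitor genes that rose, Mki67 and Top2a mark dividing cells of any type. Atoh1, the transcription factor that specifies these progenitors, was 3.77-fold higher in Ptch1KO than in SufuKO (limma adjusted p = 2.97e-05). The part of newborn neurons or of progenitors in the Igfbpl1 level was not tested.

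**Figure D2:**
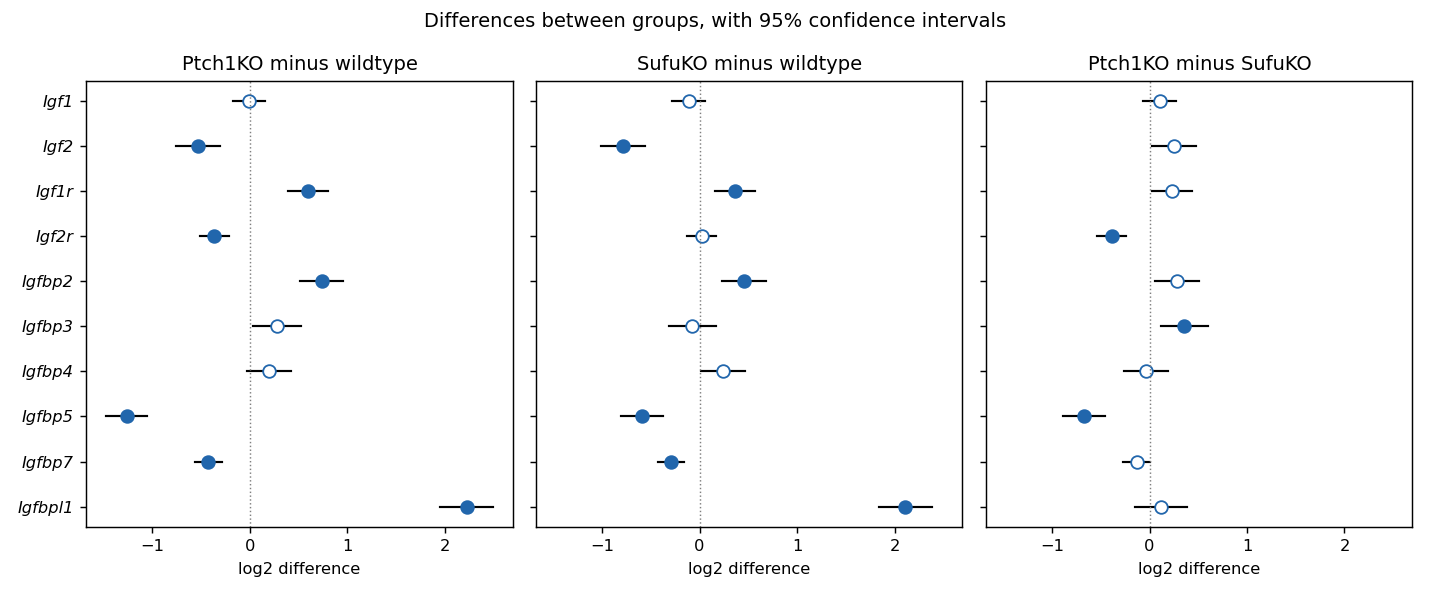
Log2 difference of each IGF gene (points) with its 95% confidence interval (lines) for Ptch1KO minus wildtype, SufuKO minus wildtype and Ptch1KO minus SufuKO. Filled points passed the limma test at an adjusted p under 0.05: 7 of 10 genes in Ptch1KO against wildtype, 6 in SufuKO against wildtype, and Igf2r, Igfbp3 and Igfbp5 between the mutants.

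For the 3 IGF genes whose group means span the widest range, the 3 genes with the most similar profile were found among all tested genes. Likeness was the root mean square difference between log2 profiles over the 9 arrays, each centred on its own mean; since genotype shapes all of them, this is a description. Nearest to Igfbpl1 were Nhlh1, a transcription factor of newborn neurons (0.15), the cyclin gene Ccnd2 (0.16) and Sox11, a transcription factor of immature neurons (0.23). Nhlh1 was 2.17 above wildtype in Ptch1KO and 1.84 in SufuKO (log2 difference), against 2.23 and 2.11 for Igfbpl1. Nearest to Igfbp5 were Hpcal4, a neuronal calcium sensor (0.077), Mical2, an actin-oxidising enzyme (0.079), and Dbp, a transcription factor of the circadian clock (0.092). Igf2 was closest to Snapc1, a subunit of the complex that transcribes small nuclear RNA genes (0.13), the asparaginase gene Asrgl1 (0.13) and Chpt1, an enzyme of phosphatidylcholine synthesis (0.14), at a distance wider than that of Igfbp5 from its nearest genes.

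**Figure D3:**
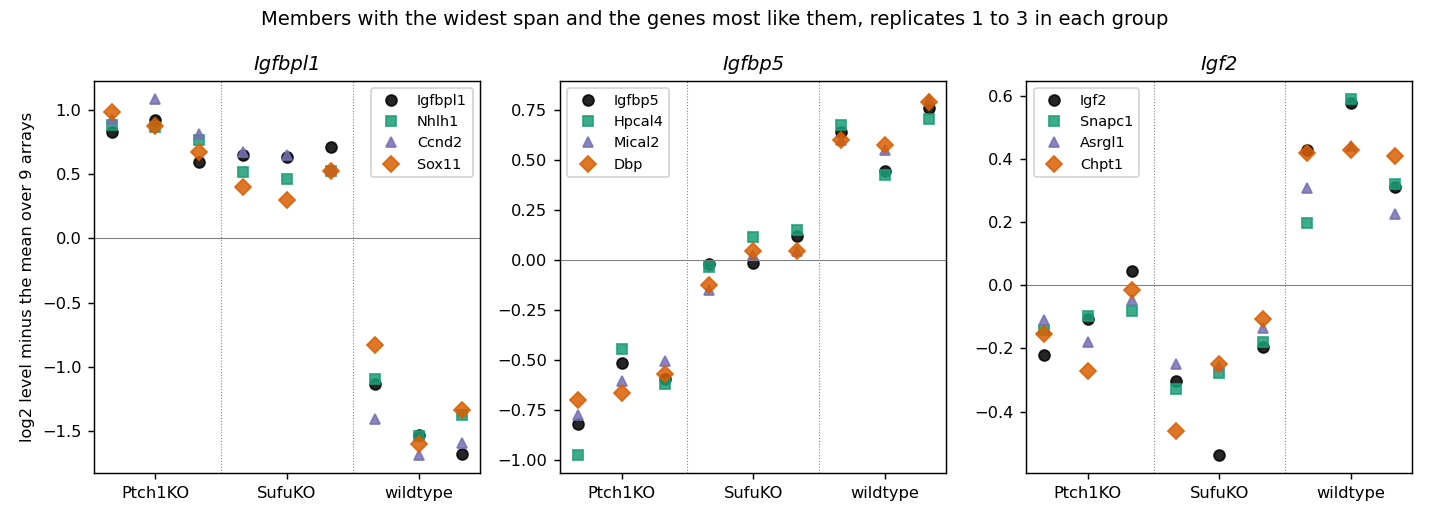
Levels of Igfbpl1, Igfbp5 and Igf2 (black circles) and of the 3 genes most like each, as log2 level minus the gene's mean over the 9 arrays (vertical axis), for the arrays of Ptch1KO, SufuKO and wildtype from left to right. Igfbpl1 and its likest genes sit far above wildtype in both mutants, with Nhlh1, Ccnd2 and Sox11 somewhat higher in Ptch1KO than in SufuKO, Igfbp5 and its likest genes at 3 separate heights, and Igf2 lowest in SufuKO.

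Other genes of the IGF and insulin axis went both ways. Of 26 genes listed 23 were tested, of which 7 rose and 4 fell in Ptch1KO against wildtype, and 1 rose and 3 fell in SufuKO, with medians of 0.11 and 0.01. Between the mutants 5 were higher and 1 was lower in Ptch1KO (median 0.04). Beside the 46.8%, 25.4% and 29.7% of all genes called in these comparisons, the counts are not read as a trait of the list. Irs1, the adaptor that couples IGF1R to PI3K, was 2.82-fold higher in Ptch1KO (10.03 ± 0.40, against 8.54 ± 0.05 in wildtype, log2, SD, n = 3 each, limma adjusted p = 4.30e-06). It was 2.14-fold higher in Ptch1KO than in SufuKO (adjusted p = 1.85e-04), and in SufuKO its 0.40 above wildtype did not pass (adjusted p = 0.0726). Igf2bp3, an RNA-binding protein of fetal tissue that binds Igf2 mRNA, was 2.43-fold higher in Ptch1KO than in wildtype (adjusted p = 3.30e-06) and 1.92-fold higher than in SufuKO (adjusted p = 1.53e-04). It was a dim gene, at 6.79 ± 0.31 in Ptch1KO, 5.85 ± 0.05 in SufuKO and 5.51 ± 0.10 in wildtype (log2, SD, n = 3 each). The 25th percentile of the wildtype arrays lay between 5.33 and 5.41.

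Htra1, a secreted protease that cleaves IGF binding proteins, fell 2.52-fold in Ptch1KO (8.08 ± 0.16, against 9.42 ± 0.03 in wildtype, log2, SD, n = 3 each, limma adjusted p = 3.28e-07) and 1.70-fold in SufuKO (8.65 ± 0.17, adjusted p = 1.47e-04). Its order of groups was that of Igfbp5, and Ptch1KO lay 1.48-fold below SufuKO (adjusted p = 8.43e-04). Grb14, an adaptor that inhibits the insulin receptor, fell 1.31-fold in each mutant (adjusted p = 8.17e-04 in Ptch1KO and 0.00264 in SufuKO). Igfbp6, a binding protein that prefers IGF2, fell 1.30-fold in Ptch1KO (adjusted p = 8.66e-04) and 1.17-fold in SufuKO (adjusted p = 0.0392). Kl, the klotho gene of the choroid plexus, was the gene that rose in SufuKO, at 1.28-fold (adjusted p = 0.0171), and it was 1.29-fold higher in Ptch1KO (adjusted p = 0.00634). Ctsd, a lysosomal protease, was 1.33-fold above wildtype in Ptch1KO (adjusted p = 0.00341) and 1.45-fold above SufuKO (adjusted p = 0.00129). Grb10, an imprinted adaptor that restrains insulin and IGF receptors, was likewise higher in Ptch1KO than in wildtype (1.33-fold, adjusted p = 0.00502) and than in SufuKO (1.45-fold, adjusted p = 0.00177), as was the growth hormone receptor gene Ghr (1.38-fold, adjusted p = 0.00326, and 1.29-fold, adjusted p = 0.0205). The protease gene Htra3 fell 1.19-fold in Ptch1KO (adjusted p = 0.0116). The insulin receptor gene Insr read 0.18 above wildtype in Ptch1KO and 0.19 in SufuKO, and neither passed (adjusted p = 0.0534 and 0.079).

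Genes of the signalling chain below the receptor also included both risen and fallen members. Of 39 genes of PI3K, AKT, mTOR and adaptor signalling 36 were tested, of which 8 rose and 12 fell in Ptch1KO against wildtype (median -0.10), and 6 rose and 3 fell in SufuKO (median 0.04). Between the mutants 4 were higher and 12 lower in Ptch1KO (median -0.07). Over all genes 46.8%, 25.4% and 29.7% were called in the same comparisons, and nothing is read from the list's counts. Akt1, the kinase that PI3K activates, rose 1.62-fold in Ptch1KO (10.07 ± 0.07, against 9.37 ± 0.06 in wildtype, log2, SD, n = 3 each, limma adjusted p = 2.63e-06) and 1.27-fold in SufuKO (9.71 ± 0.02, adjusted p = 0.0025), and also differed between the mutants (adjusted p = 0.0014). Its order of groups was that of Igf1r. Foxo1, a transcription factor that AKT keeps out of the nucleus, fell 1.49-fold in Ptch1KO (adjusted p = 5.90e-05) and 1.18-fold in SufuKO (adjusted p = 0.0407). Its relative Foxo3 fell 1.43-fold in Ptch1KO (adjusted p = 1.28e-04) and was not called in SufuKO (adjusted p = 0.074). For Foxo3, Ptch1KO lay 1.24-fold below SufuKO (adjusted p = 0.00896). Foxo4, another relative, was 1.15-fold higher in Ptch1KO than in SufuKO (adjusted p = 0.0469).

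The adaptors and PI3K subunits varied among themselves. Shc2, an adaptor of receptor tyrosine kinases, was 1.79-fold higher in Ptch1KO (limma adjusted p = 1.93e-05), and Pik3r3, a regulatory subunit of PI3K, was 1.69-fold lower (adjusted p = 3.43e-05). Gab1, a docking adaptor, rose 1.39-fold in SufuKO (adjusted p = 8.51e-04). Pik3r1, the main PI3K regulatory subunit, fell 1.34-fold in Ptch1KO (adjusted p = 0.00224) and 1.41-fold in SufuKO (adjusted p = 0.00206). Eif4ebp2, a translation repressor that mTOR inactivates, rose 1.45-fold in Ptch1KO (adjusted p = 8.21e-04) and 1.30-fold in SufuKO (adjusted p = 0.017). Grb2, the adaptor that links receptors to Ras, fell 1.33-fold in Ptch1KO (adjusted p = 1.46e-04) and 1.17-fold in SufuKO (adjusted p = 0.0202). Inpp5d, a lipid phosphatase of blood-derived cells, was 1.17-fold higher in Ptch1KO than in SufuKO (adjusted p = 0.0142). The kinase gene Mtor was 1.26-fold lower in Ptch1KO than in SufuKO (adjusted p = 0.00199), and Shc3, a neuronal adaptor, 1.42-fold lower (adjusted p = 2.88e-04). Protein amounts and phosphorylation were not measured, so these are levels of RNA and not of signalling.

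**Figure D4:**
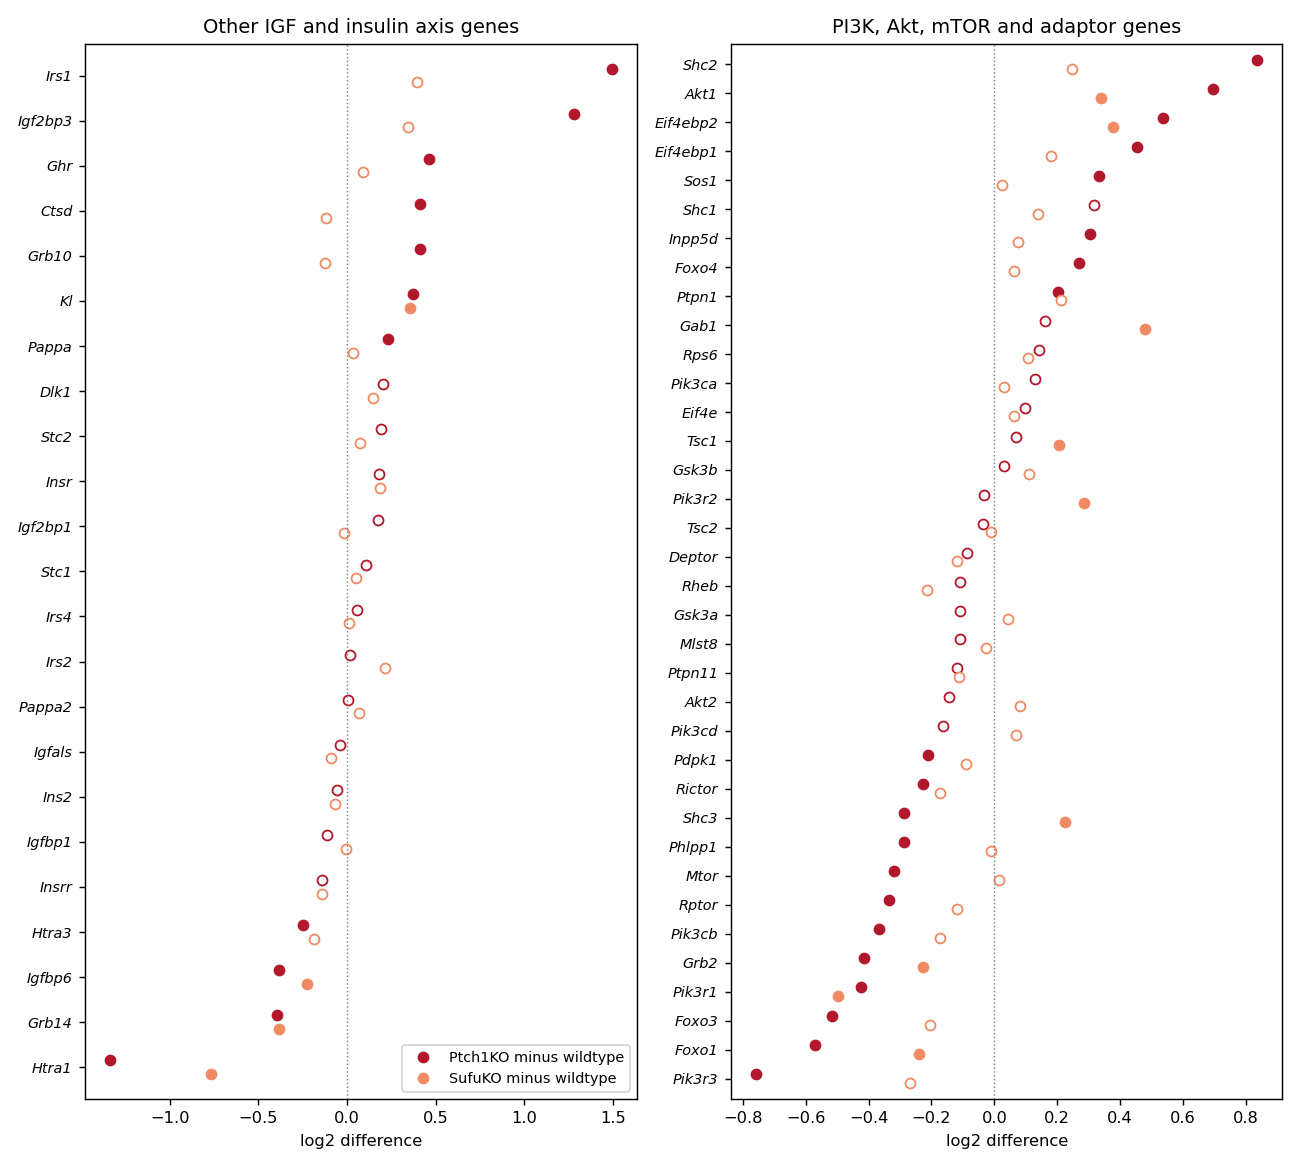
Log2 difference from wildtype of 23 other IGF and insulin axis genes (left) and 36 genes of PI3K, AKT, mTOR and adaptor signalling (right), in Ptch1KO (dark red) and SufuKO (orange), sorted by the Ptch1KO difference. Filled points passed the limma test at an adjusted p under 0.05; Irs1 and Igf2bp3 are farthest to the right and Htra1 farthest to the left of the axis genes in Ptch1KO.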

How the data were processed

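Per the labels' protocols, the arrays were Affymetrix Mouse Gene ST arrays, probed with total RNA from frozen tissue. The authors deposited log2 values of 35556 probe sets on 9 arrays; how they corrected and normalized them is not given in the sources used here, and the scale was recognised from the values. They carry no detection calls, so folds of dim genes may be understated. Probe sets with 1 annotated gene (21789) were used, those with several (1621) or none listed (12146) were not, and for genes with several the one with the highest mean was kept.

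Tested genes had to exceed the 25th percentile of the array on 3 or more arrays. The model, fitted with limma (version 3.58.1, R version 4.3.3), had 1 mean per group over all 9 arrays and empirical Bayes variances, with the 2-sided p adjusted by Benjamini-Hochberg over 16323 genes, threshold 0.05. The fit was also run on simulated data with independent noise and few changed genes. Since far more genes were called here, that run cannot show whether the present calls are sound. Folds are log2 differences turned to the linear scale, SE is moderated, and each SD is over 3 arrays. The labels do not state separate mice within a group, so the spread may be technical.

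Members, gene lists and alternatives were chosen with earlier results of these data known. Named beside the members are, per list and comparison, genes among the 4 with the smallest p, and further called or relevant genes picked after their values were seen. Shared replicate numbers were not taken as pairs. Symbols and gene order came from RefSeq (GRCm38.p6), which changed 0 symbols.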

Additional observations from a re-analysis of the deposited data

How the results depend on the processing

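The 30 differences (10 genes in 3 comparisons) were recomputed under 17 alternatives each. Of these 510 recomputed values, 492 kept their side of the threshold, 4 lost a call and 14 gained one. The counts of genes that fell stayed at 4 in Ptch1KO and 3 in SufuKO against wildtype and at 2 between the mutants. Leaving out 1 array gave 3 to 5 risen genes in Ptch1KO (5 without Ptch1KO replicate 3) and 2 to 3 in SufuKO (2 without wildtype replicate 2). Between the mutants, where 1 gene was higher, the count ran from 0 (without Ptch1KO replicate 1 or 2 or SufuKO replicate 2) to 3 (without Ptch1KO replicate 3 or SufuKO replicate 3), and the total from 2 to 5. Quantile normalization gave 3 higher and 5 in all there, and the filter at the array median and a fit of the 6 arrays compared gave 2 higher each. The cause was not tested. Replicate numbers in the titles gave a block that changed no call on the 10 genes, at 7, 6 and 3 called. Same-numbered arrays had deviations correlated between -0.31 and 0.35, so the numbers are not taken to pair the samples.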

Other observations

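Some of the IGF genes have a chromosomal neighbour among the genes of the lists used here, beside the pair Igfbp2 and Igfbp5, and these neighbours were looked up after the values were known. Igfbp4 lies beside Top2a, the topoisomerase gene of dividing cells. Top2a was 9.83-fold higher in Ptch1KO and 5.08-fold higher in SufuKO than in wildtype (limma adjusted p = 2.05e-08 and 3.03e-06), against 1.15-fold and 1.18-fold, neither called, for Igfbp4. Igfbp3 lies beside Igfbp1, which differed from wildtype by -0.12 in Ptch1KO and -0.01 in SufuKO (log2, adjusted p = 0.369 and 0.973). Igf2 lies beside the insulin gene Ins2, which differed by -0.06 and -0.07 (adjusted p = 0.539 and 0.519).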
